A study of Mus musculus with 12 samples.

Results

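The transcripts of 10 signalling genes that act directly below the Toll-like receptors and the interleukin-1 receptor family were followed in bone marrow-derived macrophages (BMDMs) of 2 genotypes, with and without lipopolysaccharide (LPS). The genes were taken as a fixed list of symbols, Myd88, Tirap, Ticam1, Ticam2, Irak1, Irak2, Irak3, Irak4, Traf6 and Tollip, and all 10 were present among the 48526 genes of the count table. All 10 also passed the filter on low counts, which kept 15523 genes. BMDMs are macrophages grown from bone marrow in culture, here for 6 d in medium with 20% L929-conditioned medium. The KO cells came from mice homozygous for a deletion at HSS9, an enhancer region upstream of Tnf, and the wild-type (WT) cells from control mice without it. Cells of both genotypes were given LPS, a component of the bacterial cell wall, or PBS, the vehicle control, for 6 hr. The PBS groups are called UT, as in the design text, and "without LPS" refers to them. Each of the 4 groups (WT UT, WT LPS, KO UT and KO LPS) had 3 libraries of total RNA, 12 in all. The WT mice are littermates by the labels. The study's methods name bought C57BL/6 mice and KO mice bred as homozygous pairs, without saying which WT mice gave these cells. The genotypes may thus differ in background. Neither source used here states the LPS dose or whether the 3 libraries of a group came from separate animals. The p-values therefore measure the spread between these libraries, which may be technical.

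Toll-like receptors and interleukin-1 receptors signal through a shared intracellular part, the TIR domain. MyD88 binds to it, at TLR4 with the help of the bridging adaptor TIRAP, and gathers the kinases IRAK4, IRAK1 and IRAK2 into a complex that hands the signal to the ubiquitin ligase TRAF6, and from there to NF-kB and the MAP kinases. From endosomes TLR4 uses another route, in which TRAM (the product of Ticam2) recruits TRIF (the product of Ticam1) and leads to IRF3 and type I interferon. IRAK3, also called IRAK-M, is a mostly catalytically inactive relative of the IRAK kinases that dampens the pathway in macrophages, and Tollip binds IRAK proteins and is likewise described as a restraint.

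Library totals ranged from 26154533 to 36423921 counts. Values are given as CPM, counts relative to library size, with library sizes adjusted by TMM, which lessens the weight of strongly changed genes. Differences are log2 fold changes of the quasi-likelihood test of edgeR, given with their standard error (SE), and adjusted p-values are by Benjamini-Hochberg over all 15523 genes. A gene passed when this adjusted p was below 0.05, and was called when its absolute log2 fold change was also above 1. Tnf, read as a check of the deletion, lay between 422 and 450 CPM in KO LPS against 826 to 938 CPM in WT LPS. The 7 macrophage markers were detected in every group, with a summed level of 28398 to 29435 CPM in WT UT, 32580 to 33679 CPM in KO UT, 24434 to 25939 CPM in WT LPS and 27051 to 28720 CPM in KO LPS, higher in KO without overlap in both treatments. Most of that sum was Lyz2 (23032 to 23968 CPM in WT UT). Neutrophil markers summed to 17.8 to 19.1 CPM in WT UT, 39.3 to 44.4 CPM in KO UT, 46.5 to 74.8 CPM in WT LPS and 62.8 to 72.5 CPM in KO LPS, with Ly6g at 0 in every group, and stromal markers to 7.59 to 8.31 CPM in WT UT, 11.1 to 11.9 CPM in KO UT, 24.5 to 25.8 CPM in WT LPS and 35.4 to 36.0 CPM in KO LPS. The rise of the stromal sum with LPS in WT was that of Pdgfrb (log2 fold change 4.36), while Col1a1 (-1.32) and Col1a2 (-0.87) passed as lower. That of the neutrophil sum was S100a8 (2.84 in WT, 1.80 in KO). S100a9 passed as lower with LPS (-0.86 in WT, -1.32 in KO), as did Mpo in KO (-2.88). In bulk RNA, fewer cells of a type and less RNA per cell cannot be told apart. Small structured RNAs took 3.00% to 3.25% of counts in WT UT, 6.64% to 7.98% in KO UT, 4.04% to 6.89% in WT LPS and 3.23% to 3.43% in KO LPS. WT LPS replicate 1 correlated as well with a KO LPS library (r = 0.9867 over log2 CPM) as with its own group (lowest r 0.9864), and member results whose passing changes without it are given both ways.

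The sequence just upstream of the start of transcription was taken from RefSeq (GRCm38.p6) for 9 of the members, with 12 starts in all, and 250 bases before each start were searched on both strands. The windows of 4 members are shown because Myd88, Irak2 and Irak3 were the members that LPS moved most, and because the response of Irak1 differed most between the genotypes. Capitals mark matches to the interferon-stimulated response element (ISRE) and to the consensus of NF-kB.
Myd88 (chr9:119340019-119340268, minus strand): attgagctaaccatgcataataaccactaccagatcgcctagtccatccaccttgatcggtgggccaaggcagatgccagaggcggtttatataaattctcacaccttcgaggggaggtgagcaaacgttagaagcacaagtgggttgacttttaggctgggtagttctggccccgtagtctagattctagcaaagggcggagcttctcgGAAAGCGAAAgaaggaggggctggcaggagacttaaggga
Irak2 (chr6:113638217-113638466, plus strand): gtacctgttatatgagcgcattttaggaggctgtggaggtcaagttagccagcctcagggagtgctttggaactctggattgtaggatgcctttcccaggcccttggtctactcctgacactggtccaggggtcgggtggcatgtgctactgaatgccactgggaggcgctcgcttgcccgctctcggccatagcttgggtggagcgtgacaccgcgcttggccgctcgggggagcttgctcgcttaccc
Irak3 (chr10:120202131-120202380, minus strand): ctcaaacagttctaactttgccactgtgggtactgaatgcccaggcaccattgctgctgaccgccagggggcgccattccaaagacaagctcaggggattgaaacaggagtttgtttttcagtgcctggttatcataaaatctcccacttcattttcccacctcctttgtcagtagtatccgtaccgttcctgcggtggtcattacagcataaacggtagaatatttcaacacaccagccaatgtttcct
Irak1 (chrX:74023922-74024171, minus strand): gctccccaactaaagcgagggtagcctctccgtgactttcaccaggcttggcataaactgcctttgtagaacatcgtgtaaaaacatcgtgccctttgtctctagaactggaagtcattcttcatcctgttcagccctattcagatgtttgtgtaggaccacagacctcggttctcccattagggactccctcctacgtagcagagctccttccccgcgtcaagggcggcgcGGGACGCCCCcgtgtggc
The Myd88 window held 1 ISRE match, GAAAGCGAAA, with its first base 40 bases before the start, and 2.98% of all 32851 promoters of the same length held one. The Irak1 window held 1 NF-kB match, GGGACGCCCC, with its first base 18 bases before the start, against 7.25% of all promoters. A second RefSeq start of Irak1 lies so close that its window holds the same match. Irak3 also had another RefSeq start, with a different window (chr10:120201598-120201847) that was searched but is not shown. Neither motif was found in the Irak2 and Irak3 windows, nor in the windows of the other members, and the letters of a cyclic AMP response element (TGACGTCA) and of AP-1 (TGANTCA) were in none of the 12, against 1.55% and 6.75% of all promoters. Myd88 alone of the members also held a TATA match (TATAAA), which 12.4% of all promoters did. A match describes letters and is not a site shown to be used.

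LPS separated the members into 3 that rose several fold, 3 that rose less, 2 that fell and 2 that did not pass in either genotype. In WT cells 8 of the 10 passed, 6 higher and 2 lower, and in KO cells the same counts were found. The background was high, with 73.3% of all genes tested passing in WT (38.0% higher, 35.3% lower) and 72.8% in KO (35.1% higher, 37.7% lower), so the share of members that passed was near that of all genes. The median log2 fold change of the members was 0.35 in WT and 0.62 in KO, against 0.05 and -0.06 over all genes. In WT 3 members were called, all higher (19.1% of all genes were called higher there), and in KO 4 were, all higher (17.7%).

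Irak3 had the largest response of the 10. It stood at 27.8, 28.1 and 27.2 CPM in the WT UT libraries (replicates 1 to 3) and at 280.4, 248 and 256 CPM in the WT LPS libraries. In the KO it stood at 26.1, 25.8 and 23.0 CPM in UT and at 291, 290.0 and 309 CPM in LPS. LPS and UT libraries lay far apart in both genotypes, and the 3 KO LPS libraries were all above the 3 of WT LPS. The log2 fold change was 3.24 (SE 0.07, adjusted p = 8.72e-21) in WT, a 9.46-fold rise, and 3.57 (SE 0.07, adjusted p = 2.15e-21) in KO, a 11.9-fold rise. In WT 93.1% of all genes tested had a smaller absolute log2 fold change.

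Myd88, the adaptor shared by most Toll-like receptors, rose next most. Its levels were 48.4, 52.3 and 45.9 CPM in WT UT and 253, 259 and 245 CPM in WT LPS. In KO cells they were 49.2, 47.3 and 44.6 CPM without LPS and 264, 270.0 and 267 CPM with it. The UT libraries of the genotypes overlapped, whereas those of KO LPS all lay above those of WT LPS by a small margin. That difference did not pass (adjusted p = 0.384 in the edgeR test). The share of all genes without overlap after LPS is not given here. The rise was 2.37 (SE 0.06, adjusted p = 3.96e-19) on the log2 scale in WT and 2.51 (SE 0.06, adjusted p = 1.70e-19) in KO.

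Irak2, a kinase of the same complex, was the remaining member called in both genotypes. It was at 79.3, 83.3 and 80.9 CPM in WT UT and at 268, 259 and 249 CPM in WT LPS. The KO libraries held 71.9, 67.8 and 64.7 CPM without LPS and 228, 242 and 234 CPM with it. All KO libraries lay below the WT libraries of the same treatment. LPS raised it by 1.67 (SE 0.06, adjusted p = 6.55e-17) on the log2 scale in WT and by 1.79 (SE 0.06, adjusted p = 2.39e-17) in KO.

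**Figure D1:**
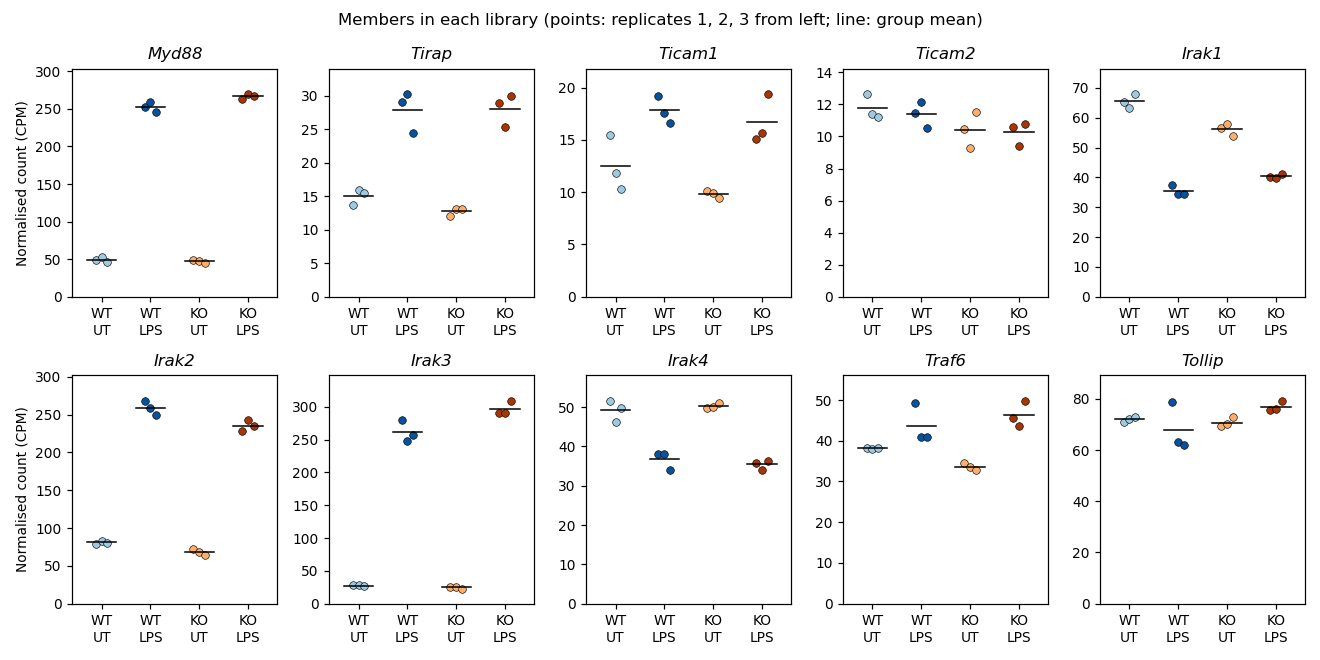
Normalised counts (CPM, linear axes from 0, one scale for each gene) of the 10 members in the 12 libraries, with 1 point for each library and a line at the group mean. Irak3, Myd88 and Irak2 stand several fold higher in both LPS groups, Irak1 and Irak4 lower, and WT LPS replicate 1 stands above the other WT LPS libraries for Tollip and Traf6.

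The bridging adaptor Tirap rose in both genotypes. WT libraries held 13.7 to 15.9 CPM without LPS and 24.4 to 30.3 CPM with it, and KO libraries 12.1 to 13.2 CPM and 25.3 to 29.9 CPM. Its log2 fold change was 0.89 (SE 0.09, adjusted p = 1.05e-08) in WT and 1.13 (SE 0.09, adjusted p = 2.96e-10) in KO, and it was therefore called in KO alone. That call was lost with upper-quartile scaling (0.95) and with the small RNA share as a covariate (0.76). In WT it was called with that covariate (1.10). The difference between these 2 responses did not pass (0.24, SE 0.13, adjusted p = 0.225). Ticam1, which encodes TRIF, rose by 0.51 (SE 0.12, adjusted p = 8.47e-04) in WT and by 0.77 (SE 0.13, adjusted p = 1.39e-05) in KO, where the pass was lost with the small RNA share as a covariate (0.62, adjusted p = 0.0707).

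Traf6, the ubiquitin ligase below the IRAK kinases, stood at 38.3, 37.9 and 38.3 CPM in WT UT and at 49.2, 40.9 and 40.9 CPM in WT LPS. Replicate 1 was thus apart from the other WT LPS libraries. Its log2 fold change in WT was 0.20 (SE 0.07, adjusted p = 0.0179), but without WT LPS replicate 1 it was 0.10 (adjusted p = 0.19) and with upper-quartile scaling 0.012 (adjusted p = 0.876). It also failed to pass with DESeq2 (adjusted p = 0.0723), RLE scaling (0.0618), no filter on low counts (0.102) and the groups compared alone (0.0935), 6 of 22 alternatives in all. In KO, where Traf6 went from 32.8 to 34.5 CPM up to 43.6 to 49.8 CPM, the log2 fold change was 0.46 (SE 0.07, adjusted p = 6.05e-06), which turned to 0.18 (adjusted p = 0.329) with the share of small structured RNAs as a covariate.

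Irak4, the kinase that starts the cascade, and Irak1, which it phosphorylates, fell. Irak1 went from 65.2, 63.3 and 68.0 CPM in WT UT to 37.6, 34.5 and 34.6 CPM in WT LPS. In the KO it went from 56.6, 57.9 and 53.8 CPM to 40.1, 39.9 and 41.1 CPM. The KO libraries thus lay below WT without LPS and above WT with it, with no overlap between genotypes in either treatment. Irak1 fell by 0.88 (SE 0.06, adjusted p = 1.11e-11) on the log2 scale in WT and by 0.47 (SE 0.06, adjusted p = 2.38e-07) in KO. With upper-quartile scaling Irak1 was called in WT, at -1.06 (adjusted p = 4.30e-13). Irak4 lay between 46.1 and 51.6 CPM in WT UT and between 33.9 and 38.1 CPM in WT LPS, and fell by 0.42 (SE 0.06, adjusted p = 4.03e-06) in WT and by 0.51 (SE 0.06, adjusted p = 3.22e-07) in KO.

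Ticam2, which encodes the adaptor TRAM, and Tollip did not pass with LPS in either genotype. Ticam2 lay between 9.25 and 12.7 CPM in all 12 libraries, with a log2 fold change of -0.045 (95% confidence interval -0.26 to 0.17, adjusted p = 0.7) in WT and -0.026 (-0.24 to 0.19, adjusted p = 0.828) in KO. With upper-quartile scaling Ticam2 passed in WT, at -0.23 (adjusted p = 0.0464). Tollip was at 71.1, 72.2 and 73.1 CPM in WT UT and at 79.0, 63.0 and 61.9 CPM in WT LPS, so that replicate 1 lay above and the other two below every WT UT library. Its log2 fold change in WT was -0.084 (95% confidence interval -0.23 to 0.064, adjusted p = 0.295), but -0.21 (adjusted p = 0.00128) without WT LPS replicate 1 and -0.27 (adjusted p = 8.33e-04) with upper-quartile scaling. In KO it was 0.12 (95% confidence interval -0.025 to 0.27, adjusted p = 0.126), with UT libraries at 69.5 to 72.8 CPM and LPS libraries at 75.7 to 79.3 CPM, and it passed without WT LPS replicate 1 in the shared fit (adjusted p = 0.0233), with protein-coding genes (0.0398), with the groups compared alone (0.0249) and, with the direction turned, with the small RNA covariate (-0.32, adjusted p = 0.0237).

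**Figure D2:**
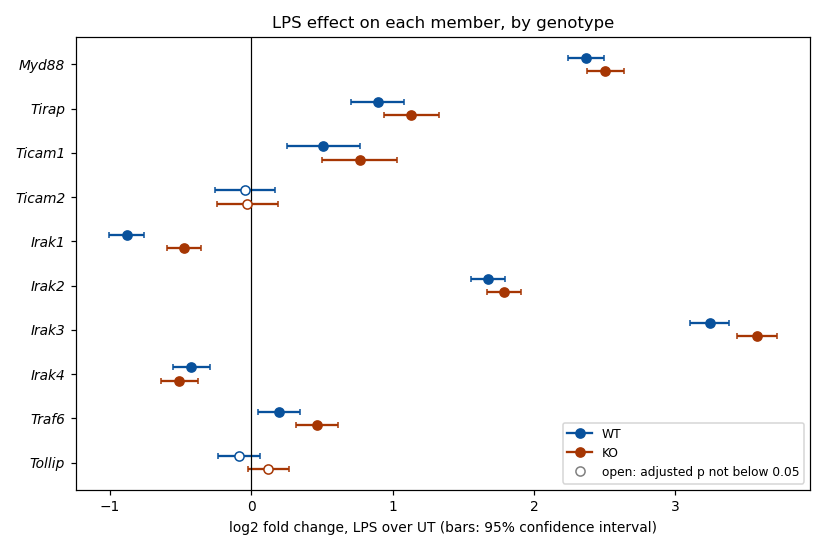
LPS effect on each member (log2 fold change of LPS over UT, x axis) in WT and KO cells, with bars for the 95% confidence interval and open symbols where the adjusted p was not below 0.05. Irak3 lies at 3.24 in WT and 3.57 in KO, Irak1 at -0.88 and -0.47, and the intervals of Ticam2 and Tollip include 0 in both genotypes.

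Some of these genes share exon bases with a neighbour, and the counting of such reads is not stated in the sources used here. Myd88 shares 290 exon bases with Acaa1a, Irak4 395 with Twf1, Irak3 192 with Tmbim4 and Tirap 446 with the antisense gene Gm39318 and 39 with Srpr, all on the opposite strand. Irak2 shares 196 with Gm43963, also on the opposite strand, which had at most 8 counts in a library. Ticam2 shares 838 with Tmed7 on the same strand, and Tmed7 had 3745 to 7411 counts per library against 223 to 541 for Ticam2, so the level of Ticam2 is uncertain. With LPS in WT the neighbours Acaa1a, Srpr and Tmbim4 rose by 1.34, 0.98 and 1.88 on the log2 scale, as did the members beside them, whereas Twf1 rose by 0.64 where Irak4 fell.

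Levels of different members were compared per length, as CPM per kb of exon (CPM divided by the union of all annotated exons). In WT UT the order was Myd88 (19.0 ± 1.25, SD, n = 3), Irak2 (18.4 ± 0.45), Tollip (14.3 ± 0.20), Irak1 (13.9 ± 0.50), Irak4 (9.80 ± 0.56), Irak3 (7.53 ± 0.13), Traf6 (4.84 ± 0.025), Ticam1 (4.19 ± 0.90), Tirap (3.05 ± 0.23) and Ticam2 (2.03 ± 0.14). Libraries overlapped between Myd88 and Irak2, between Tollip and Irak1 and between Traf6 and Ticam1, so these neighbours were not separated. After LPS in WT the order was led by Myd88 (98.0 ± 2.65), Irak3 (71.2 ± 4.54) and Irak2 (58.7 ± 2.16), followed after a wide gap by Tollip (13.4 ± 1.89), Irak1 (7.54 ± 0.37) and Irak4 (7.31 ± 0.48), of which the last 2 overlapped. Ticam1, Tirap and Traf6 followed within overlapping ranges, at 5.95, 5.66 and 5.54, and Ticam2 was again lowest at 1.96. Irak3 thus moved from the sixth to the second place, and it held the same places in KO, where it went from 6.78 to 80.7 CPM per kb. With the length of the longest transcript in place of all exons, Irak2 came before Myd88 in both UT groups, and the first 4 places after LPS were unchanged in both genotypes.

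**Figure D3:**
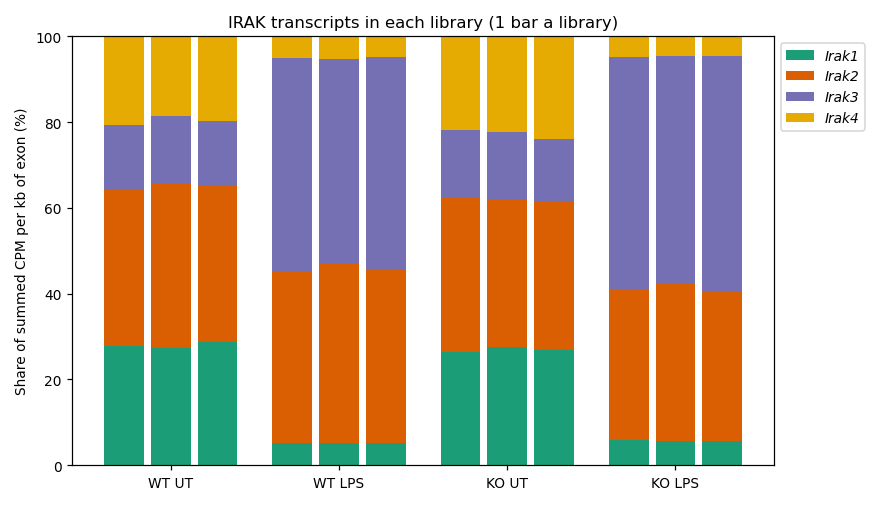
Share of each IRAK transcript (percent of the summed CPM per kb of exon of Irak1, Irak2, Irak3 and Irak4, y axis) in each of the 12 libraries, 1 stacked bar a library. Irak3 goes from 14.7% to 15.7% of the sum in UT libraries to 47.8% to 54.9% in LPS libraries, and Irak1 and Irak4 shrink.

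Within the IRAK family both the sum of the levels and its make-up shifted with LPS. The 4 transcripts summed to 49.6 ± 0.47 CPM per kb in WT UT and 145 ± 6.86 in WT LPS (SD, n = 3), and to 44.1 ± 1.49 and 149.6 ± 3.38 in KO. Irak3 made up 15.2% ± 0.40 of that sum in WT UT and 49.2% ± 1.16 in WT LPS, and 15.4% ± 0.56 and 54.0% ± 1.01 in KO. The share of Irak1 in WT was 28.0% ± 0.74 without LPS and 5.21% ± 0.02 with it, and in KO 26.9% ± 0.52 and 5.72% ± 0.07. That of Irak4 was 19.8% ± 1.01 and 5.05% ± 0.29 in WT, and 22.7% ± 1.06 and 4.72% ± 0.16 in KO. Irak2 made up 37.1% ± 1.17 and 40.6% ± 0.92 in WT and 35.0% ± 0.85 and 35.6% ± 1.13 in KO. Shares within a family are bound to each other, and with the longest transcript as length Irak3 made up 45.5% in WT LPS and 50.4% in KO LPS. Among the 4 TIR adaptors, Myd88 made up 67.2% ± 2.06 of the summed level in WT UT and 87.8% ± 0.63 in WT LPS, and 70.4% ± 1.34 and 88.8% ± 0.97 in KO.

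The genotypes were first compared without LPS, which asks whether the deletion went with a different resting level of these genes. In KO UT 9 of the 10 members were lower than in WT UT, as were 7690 of all 15523 genes. With the small RNA share as a covariate Tirap, Ticam2, Traf6 and Tollip turned higher. In the main fit 3 members passed, all lower, where 23.8% of all genes passed and 9.69% passed as lower. None was called, against 1.82% of all genes, and 6 had an unadjusted p below 0.05, as did 5320 of all 15523 genes. Libraries of the 2 genotypes did not overlap for 6 members, all lower in KO, where 19.1% of all genes were lower without overlap. The median log2 fold change of the members was -0.18, against 0.0014 over all genes.

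Irak2 was lower by a log2 fold change of -0.25 (SE 0.06, adjusted p = 0.00204) and Irak1 by -0.22 (SE 0.06, adjusted p = 0.00512). Both were lower without overlap, and therefore in any pairing of libraries. Ticam1 passed with -0.35 (SE 0.12, adjusted p = 0.0465), from 15.5, 11.8 and 10.3 CPM in WT UT to 10.1, 9.90 and 9.48 CPM in KO UT. The margin rested on WT UT replicate 1, without which the log2 fold change was -0.17 (adjusted p = 0.343), and with libraries paired by batch it was -0.34 (adjusted p = 0.0663). Over all fits that left out 1 library its adjusted p ranged from 0.00936 to 0.343. Traf6 (-0.19, adjusted p = 0.0644), Tirap (-0.23, adjusted p = 0.0729) and Irak3 (-0.15, adjusted p = 0.105) did not pass, but all 3 did with DESeq2, RLE and upper-quartile scaling, which brought the count to 6. Traf6 also passed without WT LPS replicate 1 (0.0179) or 3 (0.041), and Tirap without WT LPS replicate 3 (0.0409) or WT UT replicate 1 (0.0426), values that are adjusted p. The log2 difference of Myd88 was -0.056 (95% confidence interval -0.18 to 0.069), that of Tollip -0.028 (-0.17 to 0.12), that of Irak4 0.032 (-0.095 to 0.16) and that of Ticam2 -0.17 (-0.37 to 0.036). The summed neutrophil, stromal and macrophage markers were each higher in all KO UT libraries than in all WT UT libraries, and their part in the result was not tested. Of the stromal markers Acta2 (0.96) and Pdgfra (1.45) passed as higher, while Col1a2 was at -0.20 and Col3a1 at -0.37, neither passing. Of the macrophage markers Adgre1, Cd68, Lyz2 and Mertk passed as higher and Csf1r as lower (-0.13, adjusted p = 0.0491), and Fcgr1 was at -0.013. The share of small structured RNAs was higher there too. With that share as a covariate Irak1 was at -0.15 (adjusted p = 0.65) and Irak2 at -0.20 (adjusted p = 0.421). Tollip turned to 0.44 (adjusted p = 0.0285), the 1 member that then passed. Its libraries overlapped, at 71.1 to 73.1 CPM in WT UT and 69.5 to 72.8 CPM in KO UT. The share did not overlap between the genotypes in either treatment, so this fit cannot tell the share from the genotype.

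**Figure D4:**
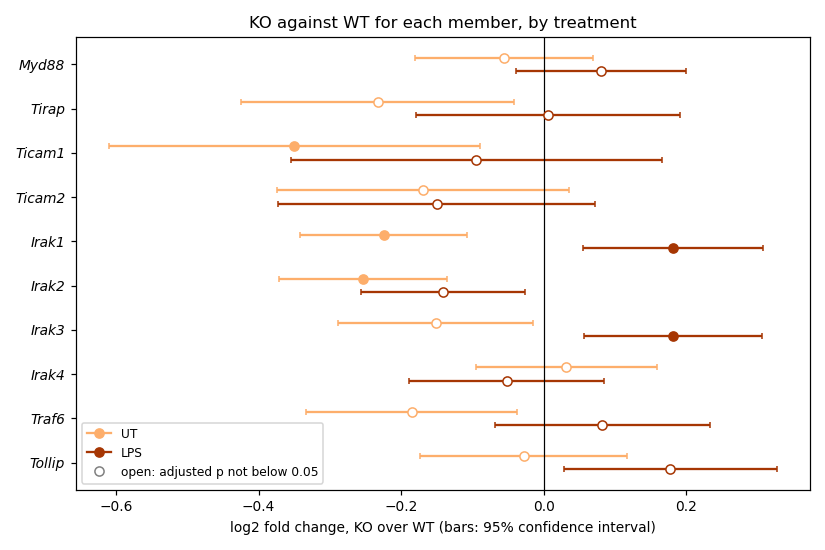
KO against WT for each member (log2 fold change, x axis) in UT and LPS-treated cells, with bars for the 95% confidence interval and open symbols where the adjusted p was not below 0.05. The point farthest from 0 is Ticam1 without LPS at -0.35, most UT values lie to the left of 0, and Irak1 changes from -0.22 to 0.18 between treatments.

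Between the genotypes after LPS 2 of the 10 members passed, both higher in KO, where 14.3% of all genes passed and 7.78% passed as higher, and 4 had an unadjusted p below 0.05, as did 4426 of all 15523 genes. None was called, against 1.25% of all genes. Irak1 was higher by 0.18 (SE 0.06, adjusted p = 0.0499), and Irak3 also by 0.18 (SE 0.06, adjusted p = 0.0473). Both lay at the threshold: with libraries paired by batch the adjusted p was 0.0781 for Irak1 and 0.0729 for Irak3, and over the fits that each left out 1 library it ranged from 0.0137 to 0.147 for Irak1 and from 0.00404 to 0.178 for Irak3. The only libraries whose removal left a pass were WT LPS replicate 1 and KO UT replicate 3, and for Irak3 also KO UT replicate 1. The direction was kept in all of those fits. For each gene every KO LPS library lay above every WT LPS library, so any pairing of libraries gives 3 of 3 batches higher in KO. The summed stromal and macrophage markers were also higher in all KO LPS libraries, 5 of the 7 macrophage markers passing as higher, and the small RNA share was lower. The neutrophil sums overlapped, though S100a9 passed as higher (0.76, adjusted p = 9.36e-04). The part of these markers was not tested.

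Irak2 was at -0.14 (SE 0.06, adjusted p = 0.0944) and Tollip at 0.18 (SE 0.07, adjusted p = 0.103). Irak2 passed, lower in KO, with upper-quartile scaling (adjusted p = 0.0376), at a mean CPM of at least 1 (0.0469) and with protein-coding genes (0.0209), in place of Irak1 and Irak3. The difference of Tollip was 0.30 (adjusted p = 2.39e-04) without WT LPS replicate 1 and 0.21 (adjusted p = 0.0428) with no filter on low counts. The log2 difference of Myd88 after LPS was 0.080 (95% confidence interval -0.039 to 0.20) and that of Tirap 0.0065 (-0.18 to 0.19). Ticam2 was at -0.15 (-0.37 to 0.072) and Irak4 at -0.052 (-0.19 to 0.085). Ticam1 was at -0.094 (-0.35 to 0.17), and leaving out 1 library moved it between -0.024 (without KO LPS replicate 1) and -0.21 (without KO LPS replicate 3), passing in neither. Traf6 was at 0.083 (-0.068 to 0.23), and at 0.18 (adjusted p = 0.0618) without WT LPS replicate 1. Over the 10 members the lowest bound of a 95% confidence interval after LPS was -0.37, for Ticam2, and the highest 0.33, for Tollip, where Tnf differed by -1.04 (SE 0.06, adjusted p = 2.76e-10).

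Whether LPS moved the members differently in KO and WT was tested as the interaction, the LPS effect in KO minus that in WT. It was above 0 for 9 of the 10, as for 7656 of all 15523 genes. With the small RNA share as a covariate Tirap, Ticam2, Traf6 and Tollip turned below 0. In the main fit 2 members passed, both above 0, where 16.8% of all genes passed and 7.32% passed above 0. None was called, against 2.16% of all genes, and 3 had an unadjusted p below 0.05, as did 4512 of all 15523 genes. For Irak1 it was 0.41 (SE 0.08, adjusted p = 0.00164), the smaller fall in KO, and the values within batches 1, 2 and 3 were 0.30, 0.34 and 0.59. For Irak3 it was 0.33 (SE 0.09, adjusted p = 0.0125), the larger rise in KO, with 0.15, 0.35 and 0.51 within batches. For both genes KO libraries lay below WT without LPS and above WT with it, without overlap. Any pairing of libraries therefore gives values above 0. Both passed in every fit that left out 1 library, with adjusted p up to 0.00772 for Irak1 and up to 0.0433 for Irak3. With the small RNA share as a covariate neither passed, at 0.29 (adjusted p = 0.588) and 0.21 (adjusted p = 0.708). That share moved in opposite directions with the genotype in UT and LPS libraries, without overlap in either. The fit with the covariate therefore cannot tell the share from the genotype.

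Traf6 missed the threshold in the interaction at 0.27 (SE 0.10, adjusted p = 0.0781) and Tollip at 0.21 (SE 0.10, adjusted p = 0.179), and without WT LPS replicate 1 they were at 0.37 (adjusted p = 0.00308) and 0.33 (adjusted p = 0.001). With DESeq2, 6 members passed in the interaction, adding Myd88 (0.22), Irak2 (0.19), Traf6 (0.35) and Tollip (0.29). With edgeR under RLE scaling, which put the median interaction of all genes 0.08 higher than TMM did, 4 members passed. With the small RNA share as a covariate the direction turned for Traf6 (-0.17) and Tollip (-0.48), neither passing.

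The genes around the members were described by 3 lists. Of 18 receptors and coreceptors 16 were tested, and in WT with LPS 11 rose and 4 fell, with a median log2 fold change of 0.83 against 0.05 over all genes, of which 38.0% rose and 35.3% fell. The double-stranded RNA receptor Tlr3 rose by 3.33 (SE 0.08, adjusted p = 6.34e-20) and Il1r1, the interleukin-1 receptor, by 3.10 (SE 0.17, adjusted p = 3.83e-13). Tlr5, the receptor for flagellin, went from 110 to 149 counts in WT UT to 0, 2 and 0 counts in WT LPS. Of the 24 downstream genes 19 rose and 2 fell, with a median of 0.85. The kinase Ikbke rose by 3.14 (SE 0.05, adjusted p = 2.60e-22), the ubiquitin ligase Peli1 by 3.04 (SE 0.08, adjusted p = 8.90e-19), and its relative Peli2 fell by 4.29 (SE 0.13, adjusted p = 8.44e-18). Of the 12 restraints, genes that limit the pathway, 5 rose and 5 fell, with a median of 0.080. Among them Socs1 rose by 6.37 (SE 0.13, adjusted p = 1.35e-20) and Tnfaip3, which encodes the deubiquitinase A20, by 5.34 (SE 0.07, adjusted p = 6.06e-24), while the inhibitory receptor Sigirr fell by 3.11 (SE 0.35, adjusted p = 6.65e-08), from 87 to 122 counts down to 3 to 10.

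**Figure D5:**
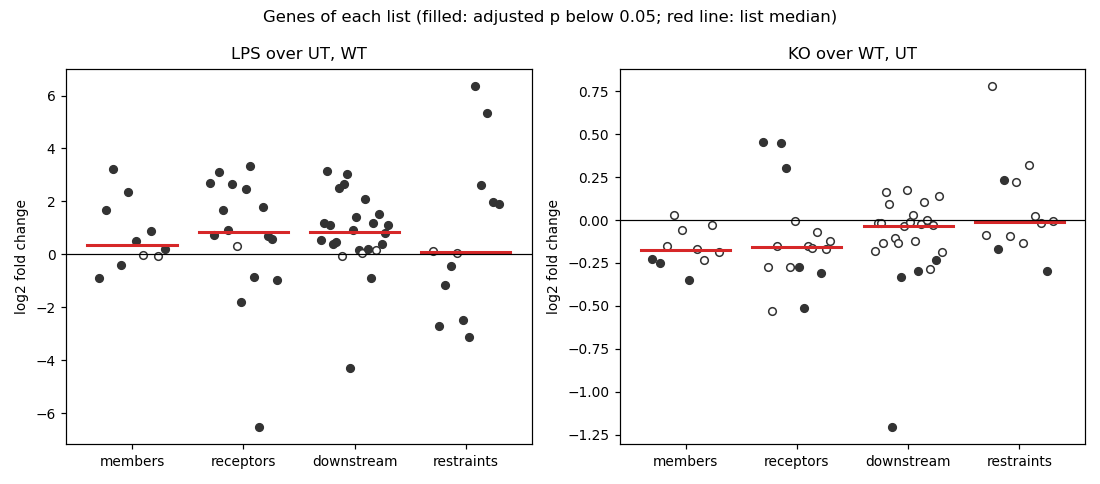
Log2 fold changes (y axes, each panel on its own scale) of the members and of the genes of the 3 lists, for LPS over UT in WT (left) and for KO over WT without LPS (right), with filled symbols for an adjusted p below 0.05 and a red line at the median of the list. The lowest point on the right is Irf7 at -1.21, and the highest on the left is Socs1 at 6.37.

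Among the list genes 6 of the 16 receptors (5 higher, 1 lower in KO), 4 of the 24 downstream genes (3 higher, 1 lower) and 4 of the 12 restraints (1 higher, 3 lower) passed between the genotypes after LPS, where 14.3% of all genes did, and none was called. Receptors with the largest differences were Tlr1 (0.36, SE 0.06, adjusted p = 2.89e-04), Tlr13 (0.31, SE 0.06, adjusted p = 0.00173) and Tlr8 (0.30, SE 0.07, adjusted p = 0.00812). Downstream, Peli2 was higher by 0.75 (SE 0.18, adjusted p = 0.00849), at low levels of 28 to 32 counts in WT LPS and 46 to 69 in KO LPS. Ube2n, which encodes a ubiquitin-conjugating enzyme that works with TRAF6, was higher by 0.20 (SE 0.06, adjusted p = 0.0309). Rnf31, a subunit of the linear ubiquitin ligase, was lower by -0.35 (SE 0.06, adjusted p = 5.26e-04). Of the restraints, Socs1 was at -0.34 (SE 0.08, adjusted p = 0.01), Tnfaip3 at -0.30 (SE 0.06, adjusted p = 0.00133) and Inpp5d, which encodes the phosphatase SHIP1, at 0.30 (SE 0.05, adjusted p = 5.73e-04).

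Without LPS 6 receptors passed (3 higher, 3 lower), 4 downstream genes (all lower) and 3 restraints (1 higher, 2 lower), where 23.8% of all genes did. The single gene of the 3 lists that was called between genotypes was Irf7, a transcription factor of the interferon response that is phosphorylated below MyD88. It stood at 163, 159 and 163 CPM in WT UT and at 70.6, 70.1 and 69.3 CPM in KO UT, and after LPS at 976, 864 and 885 CPM in WT and 837, 857 and 920.1 CPM in KO. The UT groups were far apart, and the LPS groups overlapped. The log2 difference was -1.21 (SE 0.06, adjusted p = 3.31e-12) without LPS and -0.060 (SE 0.05, adjusted p = 0.505) after it, and the interaction was 1.15 (SE 0.08, adjusted p = 1.02e-08).

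For the 3 members with the widest range of group means, the genes with the most similar profile were sought over the 12 libraries, among 9588 genes with a mean of at least 5 CPM. Nearest to Irak3 were Jag1, Slc7a8 and Mmp14, nearest to Myd88 were Jag1, Fpr2 and Rrbp1, and nearest to Irak2 were H2-Q4, Prkcd and Notch2. Pearson's r over log2 CPM was between 0.9989 (Notch2) and 0.9996 (Jag1 with Myd88). Such likeness was common, since 2324 genes had r above 0.95 with Irak3, 2319 with Myd88 and 2237 with Irak2. The 12 points share the split into UT and LPS libraries.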

How the data were processed

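Total RNA of 12 BMDM samples was profiled by RNA-seq. The authors prepared stranded, globin-depleted libraries, aligned reads to GRCm38 with HISAT2 2.1.0 and deposited raw counts per gene from featureCounts 2.0.0. The annotation release, strand setting and treatment of shared reads are not given in the sources used here. Symbols, exons and coordinates came from GENCODE for GRCm38, matched by gene identifier without version, and unmatched identifiers held 0.122% of counts. All members and gene lists were chosen with earlier results of these data known.

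Tests on the counts were by quasi-likelihood in edgeR 4.0.16 (limma 3.58.1, R 4.3.3) after TMM scaling and filterByExpr (minimum count 10, minimum total 15), in one model of 4 group means without covariates. The study's criteria (adjusted p below 0.05, absolute log2 fold change above 1) defined calls. The common biological coefficient of variation was 0.0712. Log2 CPM used a prior count of 2. The code was tested on simulated data. Counting depth limits precision, and intervals cover the spread between libraries. Figures used matplotlib 3.10.9 in Python 3.11.15. Named list genes are the 3 largest passing log2 fold changes with LPS in WT and between genotypes after LPS, and those called in another genotype comparison.

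The batch number equals the replicate number in the labels, so same-numbered libraries are paired by label. Deviations from group means of the 18 same-numbered pairs correlated at r of -0.0631 to 0.0373, with 0 pairs above 0.1. No replicate pair agreed within counting noise (chi-square of at least 3.73 per degree of freedom). Alternatives were a replicate block, DESeq2 1.42.0, scaling by RLE or the upper quartile, fits without the 10 most-counted genes, no filter or one at a mean CPM of 1, the groups compared alone, protein-coding genes, the small RNA share as a covariate, longest transcripts as length, and each library left out.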

Additional observations from a re-analysis of the deposited data

Results flagged for a closer look

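The LPS response of Irak1 differed between the genotypes by an edgeR interaction of 0.41 on the log2 scale (SE 0.08, adjusted p = 0.00164, 3 libraries a group). The fall was 0.88 in WT and 0.47 in KO. KO libraries lay below WT without LPS and above WT with it, without overlap, so any pairing of libraries gives a value above 0.

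The LPS response of Irak3 differed likewise, with an interaction of 0.33 (SE 0.09, adjusted p = 0.0125), from rises of 3.24 in WT and 3.57 in KO. Its libraries were placed in the same way, so the value is again above 0 in any pairing. The share of small structured RNAs moved with both results. With that share as a covariate neither passed, with Irak1 at 0.29 (adjusted p = 0.588) and Irak3 at 0.21 (adjusted p = 0.708). The share did not overlap between the genotypes in either treatment, so this fit cannot tell the share from the genotype.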

How the results depend on the processing

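The LPS effects of Myd88, Irak1, Irak2, Irak3, Irak4 and Tirap kept their direction and an adjusted p below 0.05 under all 22 alternatives in both genotypes, while the calls at an absolute log2 fold change above 1 changed for Irak1 in WT and for Tirap in both genotypes. Ticam1 lost its pass in 1 alternative in KO and in none in WT, and Traf6 in 6 in WT and 1 in KO. The number of members passing with LPS, 8, ranged from 7 to 9 in each genotype. Upper-quartile scaling moved the median of all genes by -0.18 in both LPS comparisons, and the calls became 2523 higher and 3467 lower in WT (2971 and 2899 with TMM), and 2324 and 3643 in KO (2741 and 3000), whereas it moved the median by -0.023 and -0.022 in the genotype comparisons after and without LPS. RLE scaling turned 159 higher and 124 lower calls without LPS into 134 and 168. The cause of these changes was not tested.

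The number of members passing after LPS, 2, was 1 with upper-quartile scaling, without the 10 most-counted genes, at a mean CPM of at least 1 and with protein-coding genes (Irak2, lower in KO, in all of these but the fit without the most-counted genes), and 0 with the replicate block, with the small RNA covariate and with only the groups compared. It ranged from 0 to 3 when 1 library was left out. Without LPS, the number went from 3 to 6 with DESeq2, RLE or upper-quartile scaling, 5 with only the groups compared and 1 with the covariate (Tollip, higher in KO), and 2 to 5 when 1 library was left out. In the interaction it went from 2 to 6 with DESeq2, 4 with RLE and 0 with the covariate, and 2 to 4 when 1 library was left out. The replicate block changed no other pass of a member than those of Irak1 and Irak3 after LPS and of Ticam1 without LPS. Genes called of all tested ranged from 103 to 245 after LPS (194), 111 to 308 without LPS (283) and 42 to 519 in the interaction (335).

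The following directions turned. Ticam2 with LPS in WT turned to 0.031 with protein-coding genes and 0.10 with the covariate (-0.098 to 0.0073 leaving out 1 library), and in KO to 0.0087 with DESeq2, 0.0087 with RLE and 0.0080 with protein-coding genes (-0.11 to 0.052). Tollip with LPS turned to 0.16 in WT and -0.32 in KO with the covariate and to -0.063 in KO with upper-quartile scaling. After LPS between genotypes, Tirap turned to -0.016 (upper quartile), -0.010 (mean CPM), -0.029 (protein-coding) and -0.18 (covariate), with -0.078 to 0.077 leaving out 1 library, and with the covariate Traf6 was at -0.055 and Tollip at -0.040. Without LPS, Irak4 was at -0.041 with DESeq2 and RLE (-0.013 to 0.068 leaving out 1 library), and with the covariate Tirap was at 0.17, Ticam2 at 0.11, Traf6 at 0.11 and Tollip at 0.44 (adjusted p = 0.0285). In the interaction, Ticam2 was at -0.0012 (mean CPM), -0.023 (protein-coding) and -0.39 (covariate), with -0.056 to 0.10 leaving out 1 library, and with the covariate Tirap was at -0.35, Traf6 at -0.17 and Tollip at -0.48.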
